A study of Mus musculus with 7 samples.

Results

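The 7 mitochondrial complex I mRNAs, mt-Nd1, mt-Nd2, mt-Nd3, mt-Nd4l, mt-Nd4, mt-Nd5 and mt-Nd6, were taken by gene symbol from the transcripts of the deposited count files. All 7 symbols were present, each with 1 transcript, among 13218 genes. CIRS-seq reads chemical modification of RNA as stops of reverse transcriptase (RT). It was measured in lysates of E14 mESC, a mouse embryonic stem cell line of strain 129/Ola, after digestion with Proteinase K, so proteins had been removed from the RNA. Dimethyl sulfate (DMS) was given at 50 to 200 mM for 2 min and the carbodiimide CMCT at 10 to 50 mM for 20 min, both at 30 °C, and the doses of each reagent were pooled before library preparation. The non-treated control (NT) was an equal pool of the aliquots with 0 mM DMS and 0 mM CMCT. Each group had 2 libraries, described in the methods as biological replicates, and RNA-seq was 1 further library of the same cells, without replicate.

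Complex I, the NADH:ubiquinone oxidoreductase, passes electrons from NADH to ubiquinone and pumps protons across the inner mitochondrial membrane. Most of its subunits are encoded in the nucleus, whereas the 7 ND subunits, all parts of the proton-pumping membrane arm, are encoded by mitochondrial DNA. Mitochondrial mRNAs are cut out of long transcripts of either strand, and most carry almost no untranslated sequence and end in short poly(A) tails. The mRNA of ND6, from the other strand, is known as an exception, with no stable poly(A) tail and with untranslated sequence after its stop codon. DMS methylates unpaired adenines and cytosines, and CMCT modifies unpaired uracils and, less readily, guanines.

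All coordinates are of mouse assembly mm9, in which the mitochondrial genome (chrM) has 16299 bases. mt-Nd1 lies at chrM:2751-3707 and has 957 bases, and mt-Nd2 at chrM:3914-4951 and has 1038. mt-Nd3 lies at chrM:9459-9806 (348 bases), mt-Nd4l at chrM:9877-10173 (297 bases), mt-Nd4 at chrM:10167-11544 (1378 bases) and mt-Nd5 at chrM:11742-13565 (1824 bases), all on the + strand. mt-Nd6 lies on the − strand at chrM:13552-14070 and has 519 bases. Each is annotated as a single exon whose coding sequence covers the whole transcript or all but its last 3 bases. mt-Nd4l and mt-Nd4 share 7 bases, and mt-Nd5 and mt-Nd6 overlap by 14 bases on opposite strands. The last 25 bases of every transcript carried no RT stop and were not measured, which covers both overlaps at the 3' ends of mt-Nd4l, mt-Nd5 and mt-Nd6. mt-Nd6 also differed in its letters, with 43.7% U, 28.1% G and 5.97% C, against 8.0% to 11.6% G in the other 6.

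The sequences below show where the strongest changes of single positions were found, and results further on refer back to them. In each, 25 bases of the mRNA are given 5' to 3' in lower case, and the capital marks the base that carried the RT stops. The first 7 hold the position of each mRNA with the largest rise with DMS.
mt-Nd1 position 249, chrM:2987-3011, + strand: cacacuagcauuAagucuaugaguu
mt-Nd2 position 145, chrM:4046-4070, + strand: aucaacaaaaaaAacccacgaucaa
mt-Nd3 position 243, chrM:9689-9713, + strand: agcaauucaaacAauuaaaaccucu
mt-Nd4l position 258, chrM:10122-10146, + strand: aaacacguacggAacagauuacguc
mt-Nd4 position 574, chrM:10728-10752, + strand: gcuucaugaucuAacaacuuacuau
mt-Nd5 position 1536, chrM:13265-13289, + strand: cauaaaacuaucAauaaauaaagca
mt-Nd6 position 223, chrM:13836-13860, − strand: acugcuauagcuAcugaggaauauc

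The capital is an A in all 7, and in 6 of them the next base is also an A. The next 5 hold the largest rise with CMCT, for mt-Nd4l the position already shown, and for mt-Nd6 no position passed the test.
mt-Nd1 position 246, chrM:2984-3008, + strand: acucacacuagcAuuaagucuauga
mt-Nd2 position 621, chrM:4522-4546, + strand: caaccucauaauCuauauuauucuu
mt-Nd3 position 286, chrM:9732-9756, + strand: uuuauucuagucAcaauucuaucuc
mt-Nd4 position 1340, chrM:11494-11518, + strand: cacuuauucuucUaacuaccagucc
mt-Nd5 position 751, chrM:12480-12504, + strand: cuacacucaaguAcaauaguaguug

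Only 1 of these 5 has a U, the main target of CMCT, as its marked base.

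The 6 CIRS-seq libraries held 181944556 to 338201940 RT stops as listed, and 140186204 to 247369982 with each genomic position counted once per gene, which is the total used below. RNA-seq held 31857551 alignments, of which 11.2% lay on chrM. The 8 pluripotency markers had RNA-seq levels of 7.47 to 221 RPKM (alignments per kb of transcript, scaled to the library total). None of them passed the test of RT stops in either comparison, against 26.4% of all genes with DMS and 29.0% with CMCT. The 6 fibroblast markers, a check for feeder cells, had 0.004 to 0.235. Col1a1, the one fibroblast gene tested in RT stops, had 35208 and 35121 stops in the NT libraries, 11711 and 11594 in DMS and 10901 and 10717 in CMCT. It fell by 2.07 on the log2 scale with DMS (adjusted p = 0.0018, edgeR) and also fell with CMCT (adjusted p = 0.0015). Its part in the results below was not tested.

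Copies of these mRNAs in the nuclear genome limited how surely stops could be placed. A position was taken as found once when the 25 bases that follow it occur once in mm9. This held for 100% of the measured positions of mt-Nd1, 84.2% of mt-Nd6, 80.6% of mt-Nd2, 77.8% of mt-Nd5, 35.6% of mt-Nd4, 0.619% of mt-Nd3 and 0% of mt-Nd4l. The nuclear copy of mt-Nd4l, at chr1:24619243-24619539, is identical over its 297 bases and is annotated as the gene Gm10222. In NT the files gave mt-Nd4l and Gm10222 the same count at all 297 positions, 3527 stops each in replicate 1 and 2654 each in replicate 2. In DMS the 2 genes differed at 130 positions and in CMCT at 117, never by more than 1 stop, and the sums of both replicates were equal at all 297 positions in every group. The same stretch of chr1 also holds a copy of mt-Nd3 with 99.7% identity (chr1:24619611-24619958) and an identical copy of the first 876 bases of mt-Nd4 (chr1:24618374-24619249). Stops of mt-Nd3, mt-Nd4l and most of mt-Nd4 therefore cannot be told apart from those of the nuclear copies.

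Replicate counts were also close to each other at some positions. Among positions with at least 50 stops in a group, the replicate counts lay within 1 stop of each other at 35 of 830 in NT, 158 of 2428 in DMS and 71 of 1406 in CMCT. The same share over all transcripts was not counted, so no excess can be read from these numbers. In CMCT this was the case for 10.3% of such positions of mt-Nd1, although its total was 1.76-fold larger in replicate 1. The part of this in the tests of single positions is given beside them, and its origin was not tested.

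In RNA-seq, which did not keep the strand, the 7 mRNAs together had 23032 alignments, 0.0723% of all (95% Wilson interval 0.0714% to 0.0732%, counting error only). mt-Nd3, which encodes a small subunit at the junction of the membrane and peripheral arms, had the highest level, 312 RPKM. mt-Nd1, whose protein lies at the ubiquinone site, followed with 264. The antiporter-like subunits were lower, with 87.6 for mt-Nd4, 71.8 for mt-Nd5 and 60.1 for mt-Nd2. mt-Nd4l had 63.7, and mt-Nd6 had 55.4. All alignments of mt-Nd3 and mt-Nd4l, 55.0% of those of mt-Nd4 and none of those of mt-Nd1 and mt-Nd6 had a further place in the genome. The mRNAs of the other complexes ranged from 145 (mt-Cytb) to 2550 (mt-Co3) on the same scale. Of these 6, mt-Cytb lay below mt-Nd3 and mt-Nd1 and above the other complex I mRNAs, and the rest lay above all 7. Reads of mt-Nd6 and of heavy-strand transcripts antisense to it cannot be told apart here.

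In CIRS-seq without treatment, the stops per base gave another order. mt-Nd1 was highest, with 37.7 and 26.8 stops per base in the NT replicates, and lay above the other 6 in both. mt-Nd4 (18.0 and 9.06), mt-Nd4l (13.0 and 9.76) and mt-Nd5 (11.9 and 9.11) came next and overlapped each other. mt-Nd2 had 9.63 and 6.32, mt-Nd3 6.72 and 4.68, and mt-Nd6 5.51 and 11.6. mt-Nd3 thus ranked first in RNA-seq and the sixth or the seventh in NT stops per base. All its RNA-seq alignments had a further place in the genome and were counted here in full. How stops of reads with several places were credited is not given, so the 2 rankings may not be comparable for mt-Nd3. The 2 NT libraries put mt-Nd6 in different places, lowest of the 7 in replicate 1 and the second in replicate 2. Fewer cells of a type and less RNA per cell cannot be told apart in these bulk lysates.

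The comparison of DMS with NT asks where methylation stopped RT. Over the 7 mRNAs, RT stops took 0.0546% and 0.0429% of the NT libraries, 0.0996% and 0.159% of the DMS libraries and 0.0837% and 0.0735% of the CMCT libraries. Both DMS libraries lay above both NT libraries for 6 of the 7 mRNAs in CPM, the stops scaled to the library total, as they did for 59.3% of all 13216 genes tested. Both CMCT libraries did so for the same count of 6, against 56.8% of all genes, and mt-Nd6 overlapped in both comparisons.

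**Figure D1:**
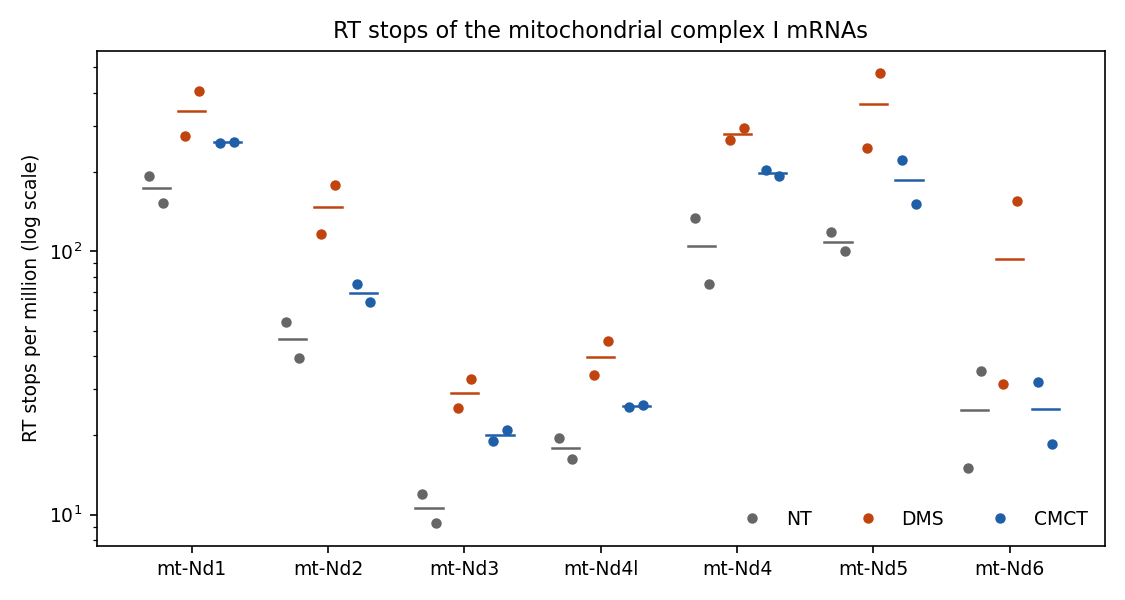
RT stops in CPM (vertical axis, log scale) for each of the 7 mRNAs, with 1 point per library, a dash at the mean of each group, and NT, DMS and CMCT in colour. In 6 mRNAs the 2 DMS points lie above the 2 NT points, whereas for mt-Nd6 the groups overlap and DMS replicate 2 stands at 156.

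mt-Nd1 had 194 and 153 CPM in NT, 275 and 408 in DMS, and 259 and 260 in CMCT. Its groups did not overlap in either comparison, but the change was not past the threshold (DMS log2 fold change 0.43 ± 0.37 (SE), adjusted p = 0.42, edgeR). mt-Nd2 had 53.8 and 39.2 in NT, 116 and 179 in DMS, and 75.1 and 64.1 in CMCT. It rose with DMS (log2 fold change 1.12 ± 0.33, adjusted p = 0.025). mt-Nd3 had 12.0 and 9.28 in NT, 25.4 and 32.8 in DMS, and 19.1 and 21.0 in CMCT, and rose with DMS as well (0.91 ± 0.26, adjusted p = 0.020). These were 2 of 7 mRNAs past the threshold with DMS, against 13.8% of all genes called higher and 26.4% called in either direction.

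Of the others, mt-Nd4 had 134 and 75.2 CPM in NT, 266 and 294 in DMS, and 204 and 194 in CMCT. mt-Nd4l had 19.5 and 16.3 in NT, 33.8 and 45.5 in DMS, and 25.6 and 26.0 in CMCT. Both lay higher in each DMS library than in each NT library, with log2 fold changes of 0.90 (adjusted p = 0.081) and 0.60 (adjusted p = 0.12). mt-Nd5 had 118 and 100 in NT, 248 and 475 in DMS, and 222 and 152 in CMCT, and its DMS change was 1.17 ± 0.41 (adjusted p = 0.053). mt-Nd5 passed without either CMCT library, which share the estimate of spread (adjusted p = 0.021 each time). mt-Nd6 had 15.0 and 35.1 in NT, 31.3 and 156 in DMS, and 32.0 and 18.6 in CMCT. Its replicates lay far apart, and its fold change had the widest error of the 7 (DMS 1.27 ± 0.63, adjusted p = 0.15); without DMS replicate 2 the value was -0.32. Without this library the change was also smaller in others, at 0.54 for mt-Nd5, 0.28 for mt-Nd4l and 0.02 for mt-Nd1.

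The median change of the 7 with DMS was 0.91 against 0.01 over all genes. With CMCT it was 0.21 against 0.11, and none of the 7 passed the threshold, against 29.0% of all genes, with adjusted p values of 0.14 (mt-Nd3) to 0.72 (mt-Nd4l). Both calls with DMS depended on the libraries used, while the log2 fold changes stayed above 0 (0.67 to 1.36 for mt-Nd2 and 0.61 to 1.04 for mt-Nd3). For mt-Nd2 the adjusted p was 0.082 and 0.15 without NT replicate 1 or 2 and 0.066 and 0.27 without DMS replicate 1 or 2, and for mt-Nd3 it was 0.060 and 0.12, and 0.050 (still under the threshold before rounding) and 0.26. With positions found once alone, of which mt-Nd3 has 2, neither passed, at log2 fold changes of 1.12 (mt-Nd2, adjusted p = 0.082) and 1.09 (mt-Nd3, adjusted p = 0.11). With each transcript as a feature neither passed, at 1.08 (adjusted p = 0.068) and 0.86 (adjusted p = 0.051). Scaled by library totals, which put the median of all genes at 0.54 with DMS and 0.49 with CMCT, all 7 passed with DMS, against 38.0% of all genes at this scaling, and 1, mt-Nd3, passed with CMCT, against 36.7%. DESeq2 called mt-Nd4 (adjusted p = 0.0041), mt-Nd4l (0.013) and mt-Nd5 (0.017) with DMS besides mt-Nd2 and mt-Nd3, which was 5 of 7 against 42.3% of all genes, and mt-Nd3 with CMCT (0.043), against 37.4%. With library totals the share of higher calls over all genes was 80.6% in place of 52.5% with DMS and 73.1% in place of 51.8% with CMCT.

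Other genes of the pathway were followed for comparison. Over all genes tested, 13.8% were called higher with DMS, and with CMCT 15.0% were called higher and 13.9% lower. Of the 6 mitochondrial mRNAs of other complexes, 1 rose with DMS and none passed with CMCT, with medians of 0.57 and -0.01. This one was mt-Atp8, a subunit of the ATP synthase, with 29.3 and 21.1 CPM in NT and 76.0 and 100 in DMS (log2 fold change 1.27 ± 0.31, adjusted p = 0.0086). Of 37 nuclear complex I subunits tested, 1 rose with DMS (median 0.15), and 2 rose and 2 fell with CMCT (median -0.09). Ndufa5, an accessory subunit of the peripheral arm, rose with both reagents (1.58 ± 0.28 with DMS, adjusted p = 0.0016, and 1.15 ± 0.28 with CMCT, adjusted p = 0.0086). Ndufs1, which holds iron-sulfur clusters, rose with CMCT (0.68, adjusted p = 0.047). With CMCT, Ndufab1, an acyl carrier protein, fell by 2.86 on the log2 scale (adjusted p = 0.012), and Ndufb2, a membrane arm subunit, fell by 1.81 (adjusted p = 0.019). None of the 5 tested complex I assembly factors of 14 listed passed the test, nor did any of the 9 tested factors of mitochondrial transcription, processing and stability of 21 listed.

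The letters that carried the stops were compared next. The share of stops on A lay above both NT libraries in both DMS libraries for all 7 mRNAs, which was so for 73.3% of the 6875 genes with at least 1000 stops in every library. In mt-Nd1 the share on A was 15.2% and 19.3% in NT, 34.7% and 46.2% in DMS, and 15.0% and 17.5% in CMCT. In mt-Nd2 it was 21.2% and 25.6% in NT and 44.8% and 47.5% in DMS. In mt-Nd3 it was 25.7% and 26.7% against 43.2% and 44.5%. The DMS groups of these 3 lay well clear of NT, while CMCT lay within or close to the NT range.

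In mt-Nd4l the share on A was 12.4% and 13.6% in NT and 27.6% and 35.5% in DMS. In mt-Nd4 it was 16.7% and 20.1% against 36.8% and 41.8%, and in mt-Nd5 20.2% and 26.0% against 36.1% and 42.8%. In mt-Nd6 it was 19.1% and 16.7% against 25.4% and 50.7%, so that its 2 DMS libraries differed by more than DMS replicate 1 did from NT. The share on U was below NT in both DMS libraries in all 7, as it was for 71.9% of these genes. The share on C, the other letter DMS reacts with, was below NT in 6 of 7, against 36.7% of these genes. These shares sum to 100%, so a larger share on A lowers the others.

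**Figure D2:**
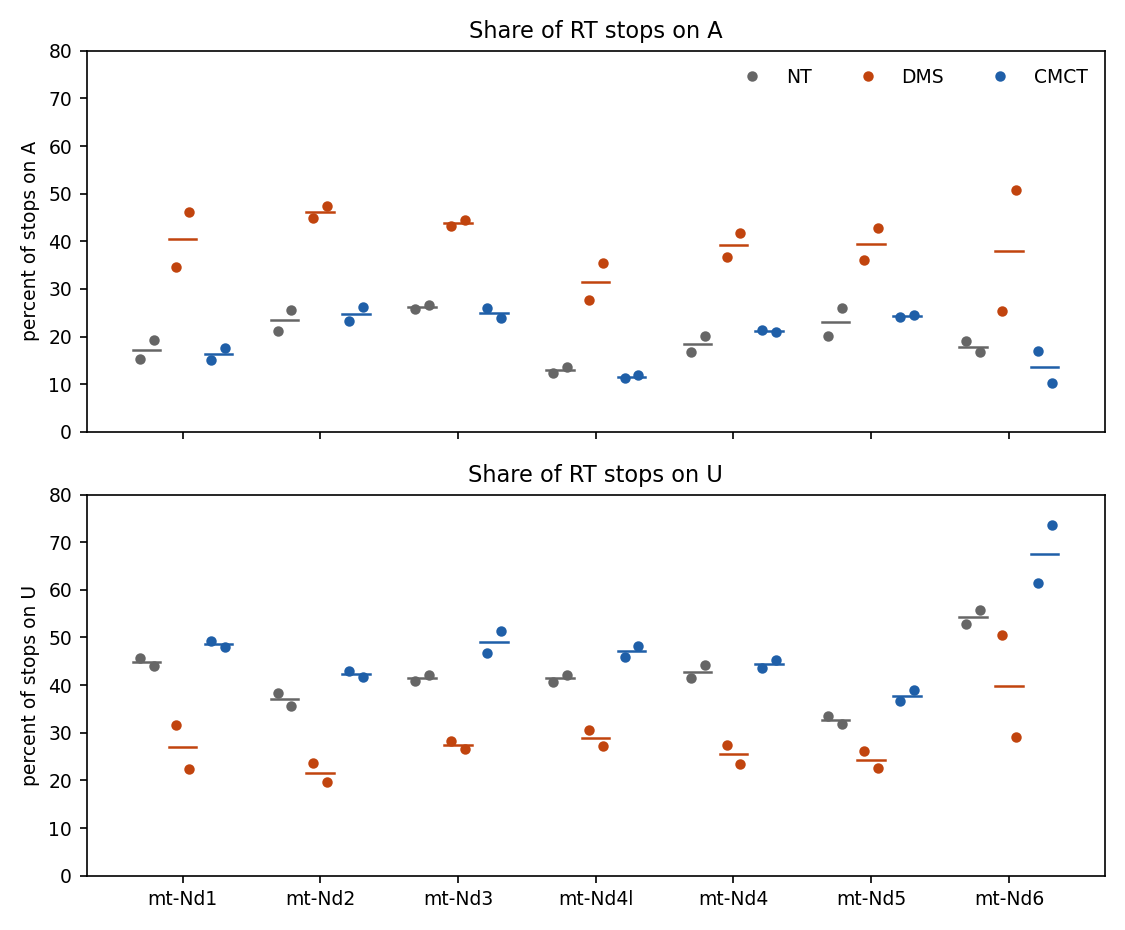
Percent of each mRNA's RT stops that fell on A and on U (vertical axes), with 1 point per library and NT, DMS and CMCT in colour. On A the DMS points lie above the NT points in all 7 mRNAs, and on U the CMCT points lie above NT in 6 of 7.

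Within the gene, each letter was set against the other letters in an edgeR model of all genes. The log2 change on A with DMS was 0.75 to 1.43 in the 7 mRNAs, and 1 of 7 passed the threshold, against 54.7% of the 12709 genes tested for A. This was mt-Nd4l (1.30 ± 0.25, adjusted p = 0.013). mt-Nd1 had a like value with a wider error (1.27 ± 0.33, adjusted p = 0.099), and mt-Nd6 had 1.43 ± 1.26 (adjusted p = 0.54), or 0.55 without DMS replicate 2. mt-Nd4l lost the call without positions over 1% of its stops (0.70, adjusted p = 0.15), and, with the change at 1.24, 1.38 and 1.09, without NT replicate 1 (adjusted p = 0.12), NT replicate 2 (0.071) or DMS replicate 2 (0.11). Without positions over 1% of their transcript's stops, mt-Nd1 (adjusted p = 0.018) and mt-Nd4 (0.033) passed instead. With stops moved by 1 base the value lay between -0.27 and 0.19 in every one of the 7.

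With CMCT the share of stops on U was above NT in both libraries in 6 of 7 mRNAs, against 61.1% of all such genes. The largest shares were those of the U-rich mt-Nd6, 52.8% and 55.8% in NT and 61.4% and 73.6% in CMCT. mt-Nd1 had 45.6% and 44.0% in NT and 49.3% and 48.1% in CMCT, and mt-Nd4, with 41.5% and 44.2% against 43.6% and 45.3%, was the one whose groups overlapped. The log2 change on U was 0.06 to 0.25, and none of the 7 passed, against 1.12% of all genes tested for U.

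Single positions were tested within their transcript, with its total in each library as the offset, so that a change of the whole mRNA drops out. Of the measured positions of the 7 mRNAs, 2394 had at least 100 stops over the 6 libraries. This sum includes the treated libraries, so a position with few or no NT stops could enter the test through its treated stops. Rises are thus favoured among the tested positions, in the 7 mRNAs and in all transcripts. The shares by letter, next base and codon given below are of positions so filtered. With DMS 270 of them (11.3%) rose and 105 (4.39%) fell, against 13.5% and 8.57% of the 448257 positions tested in all transcripts. With CMCT 76 (3.17%) rose and 73 (3.05%) fell, against 5.42% and 5.39%. Both DMS shares and both CMCT shares were below those of all transcripts.

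Of the 270 positions that rose with DMS, 248 were A. They were 29.4% of the 844 tested A of the 7 mRNAs, against 36.7% of A in all transcripts. Only 17 of 642 tested C rose (2.65%, against 8.15%), 1 of 134 G (against 4.87%) and 4 of 774 U (against 4.11%). Among those that fell, U was the main letter, with 70 of 774 (9.04%, against 14.2%). With CMCT 33 of 774 U rose (4.26%, against 8.85% in all transcripts). So did 25 of 844 A (2.96%, against 5.16%), 16 of 642 C (2.49%, against 3.87%) and 2 of 134 G (1.49%, against 2.88%).

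The mRNAs differed in how many A rose. In mt-Nd1 it was 72 of 181 tested A (39.8%), in mt-Nd4 79 of 202 (39.1%), in mt-Nd3 10 of 24 (41.7%) and in mt-Nd4l 9 of 22 (40.9%). In mt-Nd2 30 of 113 rose (26.5%), in mt-Nd5 45 of 245 (18.4%) and in mt-Nd6 3 of 57 (5.26%). mt-Nd5 and mt-Nd6 were also those whose position counts were least alike between the DMS replicates, with Pearson correlations over positions of 0.586 (n = 1799) and 0.454 (n = 494), against 0.749 to 0.948 in the other 5. These positions share a library and an mRNA, and the part of the replicates in the lower counts was not tested.

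**Figure D3:**
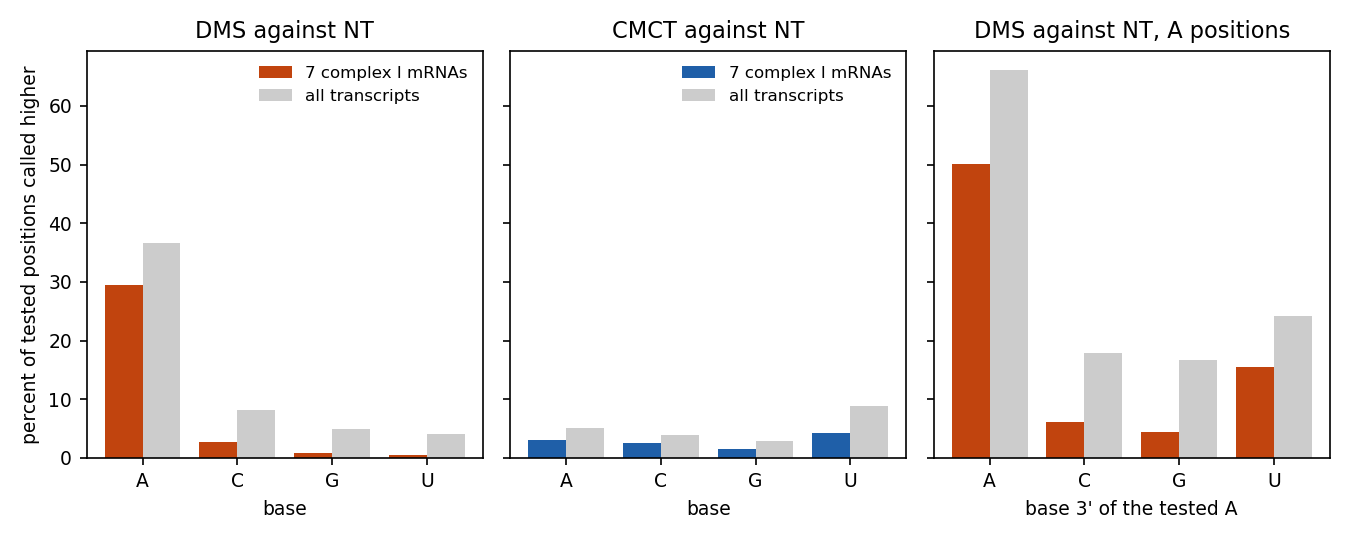
Percent of tested positions that rose (vertical axis) with DMS and with CMCT by letter, and, for A with DMS, by the base 3' of it, with coloured bars for the 7 mRNAs and grey bars for all transcripts. With DMS, A stands out in both, at 29.4% and 36.7%, and A before another A reaches 50.1% and 66.1%.

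The calls at single positions rested on both NT libraries. Without NT replicate 1 or 2, no position of any transcript passed with DMS by edgeR, though 130799 and 118445 positions had an unadjusted p below 0.05. Without DMS replicate 1 or 2, the 7 mRNAs had 135 and 36 risen positions in place of 270, and 49 and 2 fallen in place of 105. With CMCT, leaving out an NT library left no risen position, leaving out CMCT replicate 1 or 2 left 43 and 3, and leaving out a DMS library left 14. Fallen positions with CMCT numbered 0 and 1 without NT replicate 1 or 2, 15 and 12 without DMS replicate 1 or 2, and 23 and 0 without CMCT replicate 1 or 2. In each of these fits with calls, the shares of the 7 mRNAs that rose or fell were below those of all transcripts, as in the fit of all libraries. At least 500 stops in place of 100 left 342 positions of the 7 mRNAs. Of these 20 rose (5.85%) and 23 fell (6.73%) with DMS, against 11.8% and 8.37% in all transcripts, and 16 (4.68%) and 12 (3.51%) with CMCT, against 5.78% and 7.61%. With the scaled library total as the offset, which keeps the change of the whole mRNA, 625 of the 2394 rose with DMS (26.1%, against 16.4%) and 24 fell (1.0%, against 12.3%). With CMCT 307 rose (12.8%, against 10.3%) and 15 fell (0.627%, against 4.76%), so that with this offset the shares risen lay above those of all transcripts. In alternatives chosen after seeing the data, leaving out positions with replicate counts within 1 stop kept 249 of the 270 risen with DMS and 65 of the 76 with CMCT. Of the same 270 and 76, 183 and 53 lay at positions found once. How many tested positions were found once was not counted, so these numbers give no rate.

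At the positions whose sequences are given above, NT had 0 to 10 stops in a library. They were chosen as the largest rises in these same counts, with both treated libraries above both NT libraries. Their fold values are thus those of maxima, and the order of the groups was required by the choice. mt-Nd1 position 249 had 1 and 0 stops in NT, 76 and 91 in DMS, and 9 and 9 in CMCT. Its share of the transcript was 91.5-fold higher in DMS (95% counting interval 16.2 to 3640, adjusted p = 0.0096, edgeR). mt-Nd4l position 258 had 0 and 0 in NT, 86 and 87 in DMS, and 16 and 16 in CMCT. It was at least 27.9-fold higher with DMS (adjusted p = 0.013) and at least 6.61-fold higher with CMCT (adjusted p = 0.039), taking 3 stops over both NT libraries as the floor. mt-Nd4 position 574 also had no NT stop and 78 and 76 in DMS, at least 20.7-fold higher (adjusted p = 0.015). At these 3 positions DMS lay above NT in both replicates, as the choice required.

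mt-Nd2 position 145, in a run of A, had 1 and 1 stops in NT and 43 and 46 in DMS (15.2-fold, interval 4.08 to 127, adjusted p = 0.021). mt-Nd3 position 243 had 1 and 2 in NT and 54 and 59 in DMS (14.8-fold, interval 4.93 to 72.8, adjusted p = 0.010). mt-Nd5 position 1536 had 0 and 1 in NT and 25 and 77 in DMS (33.3-fold, interval 5.85 to 1330, adjusted p = 0.029). At mt-Nd5 the 2 DMS libraries were thus unlike each other, though both were above NT, as the choice required. mt-Nd6 position 223 had 1 and 6 in NT and 19 and 226 in DMS, a log2 change of 3.05 ± 0.71 within the transcript (adjusted p = 0.049). All 7 of these calls were lost without NT replicate 1 or 2 (adjusted p 0.061 to 0.17) and without DMS replicate 2, and without DMS replicate 1 those of mt-Nd1, mt-Nd3 and mt-Nd6 held. The fitted log2 change of mt-Nd1 position 249 was 6.32. Leaving out 1 library at a time put it between 5.63 (without NT replicate 2) and 9.18. That of mt-Nd3 position 243 was 3.81, with 3.16 and 4.62 without NT replicate 1 or 2. For mt-Nd5 position 1536 it was 4.79, and between 3.70 (without NT replicate 1) and 8.15 with 1 library left out. mt-Nd6 position 223 was at 2.12 when DMS replicate 2 was left out, at 4.12 when NT replicate 2 was, and did not pass with the scaled library total as offset (adjusted p = 0.064).

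**Figure D4:**
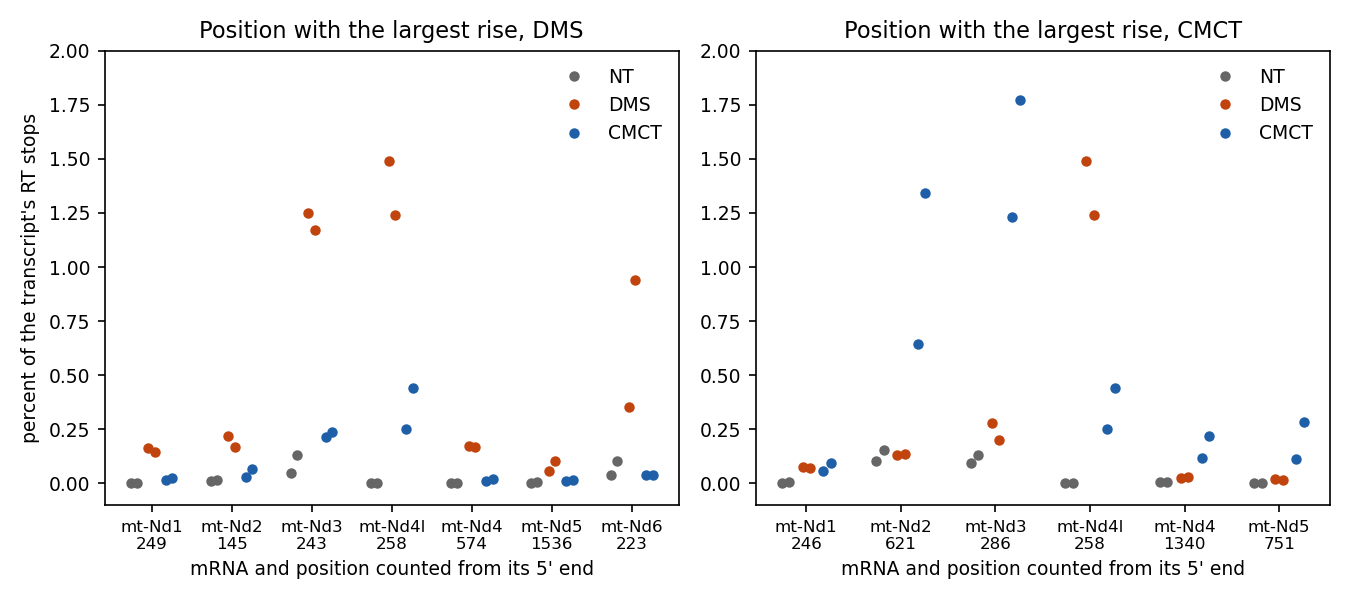
RT stops at the named position as percent of the stops of its mRNA (vertical axis), 1 point per library, for the position with the largest rise with DMS and with CMCT in each mRNA. Each position was chosen with both libraries of its reagent above both NT libraries, so this order holds throughout. The highest point is mt-Nd3 position 286 in CMCT replicate 2, at 1.77%.

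With CMCT, mt-Nd1 position 246 had 1 and 1 stops in NT and 36 and 34 in CMCT (20.9-fold, interval 5.58 to 176, adjusted p = 0.015). It had 35 and 43 in DMS, and so was raised by both reagents. mt-Nd2 position 621, a C, had 10 and 10 in NT and 120 and 120 in CMCT, a log2 change of 2.95 ± 0.49 (adjusted p = 0.036). mt-Nd3 position 286 had 2 and 2 in NT and 58 and 52 in CMCT, a log2 change of 3.72 ± 0.41 (adjusted p = 0.015). In DMS these 2 positions had 26 and 37 stops, and 12 and 10. mt-Nd4 position 1340, a U, had 2 and 1 in NT and 60 and 60 in CMCT (18.9-fold, interval 6.30 to 92.7, adjusted p = 0.018). mt-Nd5 position 751 had none in NT and 63 and 60 in CMCT, at least 20.3-fold higher (adjusted p = 0.047). All 6 calls with CMCT, that of mt-Nd4l included, were lost without NT replicate 1 or 2 (adjusted p 0.11 to 0.17), and mt-Nd2 position 621 had 2.34 without CMCT replicate 2 (adjusted p = 0.092). The replicate counts at mt-Nd2, mt-Nd4 and mt-Nd4l were equal, although their CMCT totals differed by 2.07-fold, 1.85-fold and 1.74-fold.

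The positions with most stops in NT were others. In mt-Nd1 it was position 323, a C, shown here because it is the one of the 7 whose share changed past the threshold with DMS.
mt-Nd1 position 323, chrM:3061-3085, + strand: uuauuuuagcaaCaucuagccuauc

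It held 520 and 410 stops in NT, 204 and 189 in DMS, and 1682 and 754 in CMCT. Its share of the mRNA fell by 2.09 ± 0.25 on the log2 scale with DMS (adjusted p = 0.012, edgeR) and changed by 0.59 ± 0.24 with CMCT (adjusted p = 0.18). It was chosen for its NT count, so a fall against NT was favoured in advance. The positions so chosen in the other 6 mRNAs also had negative log2 changes with DMS, from -2.06 (mt-Nd2) to -1.14 (mt-Nd4), none past the threshold. In the other 6 mRNAs the position with most NT stops held 1.09% to 5.29% of the stops of its mRNA in an NT library, from mt-Nd2 position 843 in replicate 1 to mt-Nd3 position 110 in replicate 2. The 10 fullest positions of a library held 9.54% ± 1.36 (SD, n = 2) of the NT stops of mt-Nd4 and 24.0% ± 1.63 of those of mt-Nd3. With DMS these means were 5.98% ± 0.276 and 19.6% ± 1.06. With CMCT they were 11.6% and 14.9% in the libraries of mt-Nd4, above both NT values of 8.57% and 10.5%, and 25.1% and 30.9% in those of mt-Nd3, which overlapped the NT values of 22.9% and 25.2%.

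The base after a risen A was most often another A. In the 7 mRNAs 195 of 389 tested A followed by A rose with DMS (50.1%), against 43 of 277 followed by U (15.5%), 8 of 132 followed by C (6.06%) and 2 of 46 followed by G (4.35%). In all transcripts the shares were 66.1%, 24.1%, 17.8% and 16.6%, so the order of A and U before C and G was general. In mt-Nd2 29 of 63 A before A rose and 1 of 50 before another base, in mt-Nd3 10 of 14 and 0 of 10, and in mt-Nd4 65 of 104 and 14 of 98. mt-Nd1 had 44 of 68 and 28 of 113, and mt-Nd5 38 of 115 and 7 of 130. mt-Nd4l had 8 of 12 and 1 of 10. mt-Nd6 differed, with 1 of 13 A before A and 2 of 44 before another base, on 3 risen A in all. An A before the position made less difference, as it preceded 28.6% of the risen A and 30.5% of the tested A that did not rise. Of A preceded by A, 71 of 253 rose (28.1%), against 40.8% in all transcripts.

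By codon, 52.8% of the 248 risen A lay at the third position, against 36.7% of the 596 tested A that did not rise. At the second position the shares were 12.5% and 20.6%. In the minimum free energy fold of each mRNA, 78.6% of the risen A and 72.1% of the others were predicted unpaired. In mt-Nd1 (70.8% and 73.4%) and mt-Nd2 (86.7% and 88.0%) the order was the reverse, and in the other mRNAs it was as in the sum. mt-Nd6, with 3 risen A and 54 others, had 33.3% and 27.8%. These shares are descriptions, since positions of one mRNA share libraries and neighbours. The third codon position held 42.8% to 50.6% A in the 6 mRNAs of the + strand and 25.6% in mt-Nd6.

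Reactivity merges both reagents into 1 value from 0 to 1 per position, the larger of the scaled DMS and CMCT values, as set out in the processing notes. Its mean at A was highest of the 4 letters in every one of the 7 mRNAs, 0.671 in mt-Nd1, 0.562 in mt-Nd2, 0.487 in mt-Nd3, 0.556 in mt-Nd4l, 0.615 in mt-Nd4, 0.554 in mt-Nd5 and 0.698 in mt-Nd6. These are from both replicates summed, and for mt-Nd6 the mean at A was 0.494 in replicate 1 alone and 0.689 in replicate 2. The means at U were 0.288 to 0.363 and those at C 0.25 to 0.308. G was second to A in mt-Nd4l, with 0.466, and in mt-Nd4, with 0.347. Between 27.7% (mt-Nd5) and 30.5% (mt-Nd1) of the measured positions had a reactivity above 0.7.

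**Figure D5:**
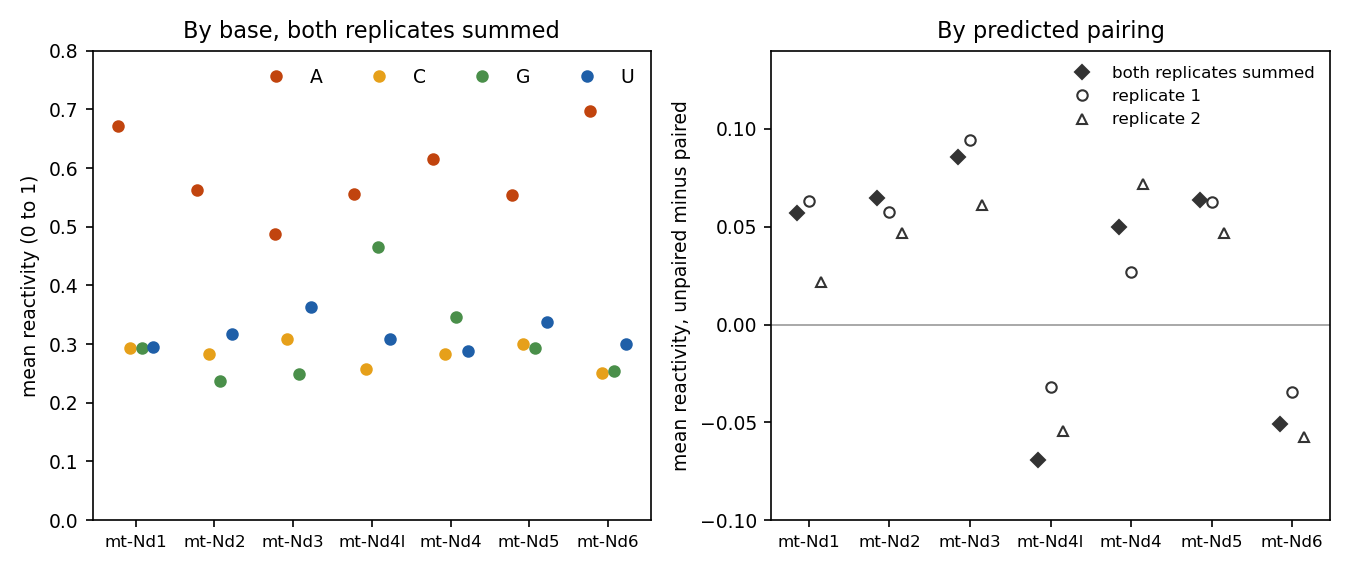
Mean reactivity (0 to 1) of each mRNA by letter, from both replicates summed, and the mean of predicted unpaired minus that of paired positions, for both replicates summed and each alone. A is highest in all 7, and the difference is above 0 except in mt-Nd4l and mt-Nd6.

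By predicted pairing, unpaired positions had the higher mean in 5 mRNAs, by 0.0572 in mt-Nd1, 0.0647 in mt-Nd2, 0.0859 in mt-Nd3, 0.0499 in mt-Nd4 and 0.0639 in mt-Nd5. In mt-Nd4l the difference was -0.0692 and in mt-Nd6 -0.0508, and each had the same sign in both replicates taken alone. With a pseudocount of 5 these differences were -0.0152 and -0.032. mt-Nd6 was the one mRNA predicted to be mostly paired, at 69.4% of its bases and -20.3 kcal/mol per 100 bases. The other 6 had 29.5% to 41.8% and -10.3 to -14.7 kcal/mol per 100 bases. Within the letter A alone, unpaired positions of mt-Nd6 had 0.698 and paired ones 0.698. In replicate 1 alone these were 0.439 and 0.517, and in replicate 2 they were 0.691 and 0.688. In mt-Nd1 the means were 0.669 and 0.674. In mt-Nd3 they were 0.540 and 0.380, the widest gap of the 7. At A the order was the reverse of that over all letters in mt-Nd4l (0.582 unpaired and 0.504 paired) and in mt-Nd2 (0.556 and 0.581). It was kept in mt-Nd4 (0.621 and 0.601) and mt-Nd5 (0.571 and 0.512). Reactivities of the 2 replicates correlated over positions with Pearson's r from 0.312 in mt-Nd6 (n = 494) to 0.645 in mt-Nd1 (n = 932).

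Stops were spread unevenly along the mRNAs. Each was divided along its length into deciles, numbered from the 5' end. Decile 10 of mt-Nd5 held 5.76% and 8.88% of the stops in NT, 10.1% and 19.3% in DMS, and 12.1% and 10.0% in CMCT, both treated groups above NT. Its decile 3 held 15.2% and 12.1% in NT and 8.33% and 5.56% in DMS. mt-Nd4 held many stops in its deciles 7 and 8, with 20.1% and 18.8% in NT replicate 1 and 11.9% and 19.2% in replicate 2. However, the first 876 bases of mt-Nd4 have an identical nuclear copy. In NT its positions found more than once had 13.8 and 7.86 stops per base, against 25.6 and 11.2 at positions found once. The part of this in the profile was not tested. In mt-Nd6 decile 7 held 11.4% and 9.98% in NT, 20.5% and 19.5% in DMS, and 20.8% and 25.5% in CMCT. It was singled out after its values were seen, and other deciles of mt-Nd6 also separated DMS from NT. Decile 4 held 15.5% and 19.0% in NT and 10.6% and 11.9% in DMS. Decile 8 went the other way, with 8.75% and 10.0% against 11.1% and 14.8%. These profiles were described without a test.

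In their levels over the 6 libraries (log2 CPM), 6 of the 7 mRNAs were much alike, with Pearson's r of 0.876 to 0.988 between any pair, and mt-Nd6 was less like them (0.427 with mt-Nd4 to 0.803 with mt-Nd5). The mitochondrial mRNAs of other complexes were as near to some of them, with 0.995 for mt-Co2 and 0.991 for mt-Atp6 with mt-Nd2 and 0.986 for mt-Atp8 with mt-Nd4l, while mt-Co1 had 0.700 with mt-Nd6 to 0.880 with mt-Nd2. The libraries share depth and treatment, and r is given as a measure of likeness alone. Among genes outside the mitochondrial genome, those most like mt-Nd1 were Rps16-ps2, Gm11196 and Gm13981 (0.9970 to 0.9989), and those most like mt-Nd4 were Gm6863, Gm10155 and Rpl21-ps12 (0.9987 to 0.9995). mt-Nd4l had Gm10222, its nuclear copy, first (1.0000), then Gm15118 and Gm6843. For mt-Nd2 they were Gm8264, Gm8137 and Gm5384, and for mt-Nd3 Gm12115, Gm7206 and Gm11281. mt-Nd5 had Mms22l, Cenpq and Gm17241 (0.9894 to 0.9947), and mt-Nd6 had Dtx4, AL844871.1 and Snx10 (0.9729 to 0.9809). The search over 6 libraries took all genes outside the mitochondrial genome except those with the lowest CPM.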

How the data were processed

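The authors deposited raw counts of RT stops per transcript position for each CIRS-seq library, mapped to a variant of mm9 with the single-nucleotide variants of E14 cells, and the RNA-seq library as alignments to mm9, which were counted here. Per the labels, processing used Bowtie 1.0.0, TopHat2 2.0.6 and bedtools 2.17.0. How reads with several places were credited is not given in the sources used here. Files also holding both replicates together were not used.

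Of 26827 transcripts, 26792 were matched to the annotation. Each genomic position was counted once per gene. Tests of counts used edgeR 4.0.16 under R 4.3.3 (quasi-likelihood test, TMM, filterByExpr, all 6 libraries in 1 fit, Benjamini-Hochberg at 0.05). Letters within a gene were tested with diffSpliceDGE. Positions were tested on the transcript with most counts per gene, with the log of the transcript total as offset. They needed at least 100 counts over the 6 libraries, treated ones included. DESeq2 1.42.0 was an alternative, and others were library totals, no filter, positions found once, every transcript, moved stops, a replicate block and each replicate left out. In data simulated for DMS against NT, 4-fold changes were recovered for 100% of changed genes (13214 genes tested), 58% of letters (50879) and 85% of positions (432397), and 2-fold changes for 29%, 6.06% and 6%.

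Reactivity was the log2 of treated over NT counts after a pseudocount of 1 and scaling to the transcript mean, with negative values and positions without a treated stop set to 0, Winsorised at the 90th percentile. Folds came from RNAfold of ViennaRNA 2.7.2, nuclear copies from blastn 2.17.0, and tables and figures from Python 3.11.15 with numpy 2.4.6, pandas 2.3.3, scipy 1.17.1, numba 0.67.0 and matplotlib 3.10.9. Intervals of the ratios are exact binomial ones at 95% and cover counting error only.

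The 7 mRNAs, the gene lists and the rules were chosen with earlier results of these data known. Named were the 7 mRNAs, of each list the 2 genes with the largest rise and fall past the threshold and alike in both replicates, per mRNA the position with most NT stops and those with the largest rise per reagent past the threshold and above NT in both replicates, and the 3 most alike genes outside the mitochondrial genome. Col1a1 and the profiles by deciles were singled out after their values were seen.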

Additional observations from a re-analysis of the deposited data

How the results depend on the processing

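With 2 replicates per group, p values rest on the spread of 2 libraries and on 1 shared estimate of it. Replicate counts within 1 stop of each other at some positions enter this spread, and their origin was not tested. Depth limits positions under 100 stops, which were not tested. Over all genes, 3485 changed with DMS and 3827 with CMCT. DESeq2 called 5593 with DMS, and positions found once gave 1068 and 638. Letters within a gene passed 9602 times with DMS, against 1288 and 1301 with stops moved 1 base upstream or downstream, and 1633 times with CMCT, against 587 with positions found once and 277 without positions over 1% of their transcript. Positions with at least 500 counts gave 30094 calls with DMS and 20010 with CMCT, out of fewer tested, in place of 98961 and 48456.

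Of the 7 mRNAs, 2 passed with DMS, against 26.4% of all genes. Library totals called 7, against 38.0%, and DESeq2 5, against 42.3%. Positions found once called 0, with 1068 calls over all genes, and every transcript as a feature 0, with 4097 transcripts called. With CMCT none passed, against 29.0%, and library totals and DESeq2 called 1 each, against 36.7% and 37.4%. Risen positions of the 7 mRNAs numbered 270 with DMS (20 with at least 500 counts, 625 with the library total as offset) and fallen 105 (23 and 24). With CMCT 76 rose (16 and 307) and 73 fell (12 and 15). Leaving out 1 library at a time gave 1719 to 4619 genes with DMS and 1600 to 4402 with CMCT, 4435 to 9337 and 827 to 1685 letters, and 0 to 81308 and 6813 to 31712 positions. For the 7 mRNAs it gave 0 to 3 mRNAs with DMS and 0 with CMCT, 0 to 189 positions risen and 0 to 78 fallen with DMS, and 0 to 43 risen and 0 to 23 fallen with CMCT. Except for the smaller number of positions or libraries these settings leave, the cause was not tested.

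The labels do not say that a replicate number marks a shared culture or day. The deviations of same-numbered libraries correlated at 0.588 for the pair of NT with DMS, which varied together, and at -0.0521 for NT with CMCT and -0.0855 for CMCT with DMS, which did not, so the fit without the block was kept. With a replicate block, 5616 and 5030 of the 13218 genes, 11034 and 1758 letters, and 102466 and 35950 positions passed with DMS and CMCT. Without the block, 3485 and 3827 genes had passed. Of the 7 mRNAs, 5 passed under the block with DMS and 0 with CMCT. The 5 were mt-Nd2 and mt-Nd3 and also mt-Nd4 (0.93, adjusted p = 0.035), mt-Nd5 (1.16, adjusted p = 0.011) and mt-Nd6 (1.17, adjusted p = 0.0026), which had not passed without it. All 7 had more CPM in DMS than in NT within both numbers. Under the block the rise with CMCT of mt-Nd4l position 258 (adjusted p = 0.087) and mt-Nd5 position 751 (0.084) did not pass.

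The median over the 7 mRNAs of the mean reactivity at A was 0.562. It was 0.544 and 0.546 in replicate 1 and 2, 0.541 with a pseudocount of 5, 0.514 for DMS alone, and 0.238 for CMCT alone. At positions found once, where 5 mRNAs have a value, it was 0.613, against 0.615 for these 5 over all positions. The third minus the second codon position was 0.082, against 0.128 for DMS and 0.015 for CMCT. Unpaired minus paired was 0.0572, against 0.0468 in replicate 2, 0.0776 with a pseudocount of 5 and 0.00714 for CMCT.

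Signs turned in single mRNAs. Leaving out 1 library at a time put mt-Nd6 with DMS between -0.32 (without DMS replicate 2) and 2.2 (without NT replicate 2), mt-Nd4l with CMCT between -0.02 (without DMS replicate 2) and 0.18, and mt-Nd6 with CMCT between -0.98 (without NT replicate 1) and 0.51 (without NT replicate 2). With CMCT, mt-Nd6 was at 0.02 by library totals, and mt-Nd3 at -2.0 at positions found once, of which it has 2. On A with DMS, stops moved upstream gave -0.06 (mt-Nd1), -0.07 (mt-Nd4l), -0.03 (mt-Nd4) and -0.01 (mt-Nd5), and downstream -0.06 (mt-Nd2), -0.05 (mt-Nd4l), -0.08 (mt-Nd5) and -0.27 (mt-Nd6). On U with CMCT, upstream gave -0.13 (mt-Nd1), -0.02 (mt-Nd3) and -0.04 (mt-Nd4), and downstream -0.05 (mt-Nd6).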
